A study of Mus musculus with 12 samples.

Results

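The genes described are 9 genes of blood coagulation: F10, F7, F9, F2, Proc, F3, F5, Thbd and F13a1. They were measured in mice lacking both Apoe and Prkch, which encodes protein kinase C eta (Prkch-/-Apoe-/-, called knockouts here, ko in the figures) and in mice lacking Apoe alone (called controls, wt in the figures). They were chosen by symbol, with their levels in macrophages and liver and their differences between the genotypes already known, so those values are given as a description and without a test. Every probe set annotated to one of these genes alone was taken. That gave 9 among 21789 such probe sets on the Mouse Gene 1.0 ST array of macrophages and liver, and 12 among 20393 on the 430A 2.0 array of aorta, where F10 has 3 and F5 has 2.

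All mice were backcrossed to C57BL/6J and lack Apoe, which encodes a protein that clears lipoproteins from blood. Peritoneal macrophages drawn out by thioglycolate came from unstimulated females on regular diet, with 3 knockout and 3 control arrays from mice aged 18, 17 and 27 weeks for replicates 1, 2 and 3 of each genotype. The 2 knockout and 2 control liver arrays are of 20-week-old males that had eaten a high-fat diet for 12 weeks and were re-fed. The knockout and the control aorta array each hold a pool of RNA from 4 such males, which were fed. Liver and aorta were perfused with saline before removal. Which part of Prkch was removed is not in the labels.

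As background, blood clots when tissue factor (F3) on cells binds factor VIIa (F7) and this pair activates factors IX (F9) and X (F10). Factor Xa, with factor V (F5) as cofactor, turns prothrombin (F2) into thrombin, which makes fibrin, and factor XIII (F13a1 is its catalytic chain) cross-links the fibrin. Thrombin bound to thrombomodulin (Thbd) instead activates protein C (Proc), which inactivates the cofactors. Factors II, VII, IX and X and protein C are made mainly in the liver and need vitamin K, and macrophages are known to make some clotting factors too.

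Prkch averaged lower in knockouts in macrophages, liver and aorta, but its macrophage values overlapped. Its brighter probe set read 9.36, 8.79 and 8.87 log2 units in knockout macrophages, against 9.94, 9.86 and 9.31 in control macrophages, and 5.93 and 5.65 in knockout livers, against 6.57 and 6.87 in control livers. The aorta signal was 9.94 in the knockout pool and 17.2 in the control pool. Both are dim, below the signal of 32.6 used for counting aorta genes, and there is 1 pool per genotype. The macrophage arrays fall into 2 sets by exact ties: knockout replicates 2 and 3 and control replicate 3 (set 2) share between 16075 and 18000 identical values per pair of arrays, and the other macrophage pairs share between 0 and 69. Knockout replicate 2 stands apart, with 253 of 15039 genes lying at least 1 log2 unit outside all 5 other macrophage arrays, where each of the other arrays has between 0 and 2 such genes. Values are therefore also given within the sets and without that array. Set 1 is knockout replicate 1 with control replicates 1 and 2.

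In control animals, F10 and F7 were bright on both the macrophage and the liver arrays, while F9, F2, Proc and F5 were bright on liver and F13a1 and Thbd on macrophages. Percentiles below are positions among all probe sets of the same array, and log2 levels of the tissues were apparently not normalized together, since array medians lay between 6.57 and 6.77 for macrophage samples and between 5.88 and 5.93 for liver samples. Each level difference is therefore given also after subtracting the array medians. The level differences describe these groups as wholes, since the macrophage donors also differ from the liver donors in sex, diet and age. In such bulk RNA, fewer cells of a type and less RNA per cell cannot be told apart.

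F10, which encodes factor X, the protease that forms thrombin, read 11.10 ± 0.011 in control macrophages (SD, n = 3) and 11.47 ± 0.10 in control livers (SD, n = 2). The difference of -0.37 log2 units was -1.15 after median centring. Its probe set, 10570291, lay at the 95.5 percentile in control macrophages and at the 98.0 percentile in control livers. F7, the protease that starts coagulation with tissue factor, read 12.01 ± 0.084 in control macrophages and 9.77 ± 0.014 in control livers, 4.71-fold higher in macrophages (2.24 log2 units, 1.46 after centring). Its probe set, 10570280, lay at the 98.1 percentile in control macrophages and the 93.3 percentile in control livers. Hepatocyte markers were low on the macrophage arrays beside these values: 9 of 10 listed markers were measured, between the 15.6 and 55.1 percentiles, with a summed linear level of 502 to 607 on knockout and 502 to 577 on control macrophage arrays. On liver arrays the same sum was 117749 to 123770 in knockouts and 114899 to 116979 in controls. The lowest of these markers in both genotypes was Apoh, at 4.98 in knockout macrophages and 4.96 in control macrophages.

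The upstream sequences of 4 of these genes are shown, because their levels follow different patterns in control animals: F10 and F7 were bright in both, F2 in liver and F13a1 in macrophages. Each is the 250 bases before an annotated start site, from RefSeq on build GRCm38.p6, where 7 of the 9 genes had an entry. For F10, F2 and F13a1 that site is the outer end of the annotated gene, but for F7 it is not. F10 lies on chromosome 8 at chr8:13037058-13037307 (plus strand), F7 beside it at chr8:13025784-13026033 (plus strand), F2 at chr2:91636458-91636707 (minus strand) and F13a1 at chr13:37050245-37050494 (minus strand). Capitals mark matches, on either strand, to TGACCTTTG, a sequence of the kind bound by the liver nuclear receptor HNF4, to GAGGAA, the core bound by the macrophage factor PU.1, or to CCAAT.
F10: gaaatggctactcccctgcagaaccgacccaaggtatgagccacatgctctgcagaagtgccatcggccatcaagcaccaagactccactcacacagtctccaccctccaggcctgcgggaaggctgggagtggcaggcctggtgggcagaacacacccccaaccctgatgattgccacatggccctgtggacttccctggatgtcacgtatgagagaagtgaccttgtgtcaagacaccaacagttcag
F7: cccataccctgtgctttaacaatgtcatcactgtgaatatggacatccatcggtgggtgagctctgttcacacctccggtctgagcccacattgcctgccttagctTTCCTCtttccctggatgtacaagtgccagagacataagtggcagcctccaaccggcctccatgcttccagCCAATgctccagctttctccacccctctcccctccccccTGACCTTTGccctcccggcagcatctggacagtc
F2: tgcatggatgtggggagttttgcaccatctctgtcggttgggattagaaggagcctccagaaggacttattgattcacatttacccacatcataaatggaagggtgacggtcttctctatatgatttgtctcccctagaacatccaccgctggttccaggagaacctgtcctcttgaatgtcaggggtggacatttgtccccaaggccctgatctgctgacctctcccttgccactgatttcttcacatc
F13a1: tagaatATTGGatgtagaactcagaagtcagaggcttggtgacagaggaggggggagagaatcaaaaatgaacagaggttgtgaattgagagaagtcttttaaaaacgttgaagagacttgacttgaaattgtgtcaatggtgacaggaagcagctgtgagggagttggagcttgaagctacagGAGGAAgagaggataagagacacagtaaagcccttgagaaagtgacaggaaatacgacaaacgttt
The F7 window held all of these motifs: TGACCTTTG from -34 to -26, CCAAT from -73 to -69 and GAGGAA on the minus strand from -144 to -139. The F13a1 window held GAGGAA from -66 to -61 and CCAAT on the minus strand from -244 to -240. RefSeq gives F13a1 a further start site, whose window, not shown, had 0 matches to all of these motifs. The windows of F10 and F2 had 0 matches, and so had those of F9, F3 and F5, which are not shown. This says only that these letters are not there. Of 32851 RefSeq promoters of the same length, 0.426% held TGACCTTTG, 23.3% GAGGAA and 33.8% CCAAT. A match is a string of letters and not a measured binding site.

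The other vitamin K-dependent genes were bright on liver arrays alone. F9, factor IX, read 6.34 ± 0.31 in control macrophages and 10.79 ± 0.13 in control livers, at the 42.4 percentile in macrophages and the 96.7 in liver, a difference of -4.45 (-5.23 after centring). F2, prothrombin, read 5.54 ± 0.12 in control macrophages and 12.31 ± 0.059 in control livers, at the 25.5 percentile in macrophages and the 99.1 in liver, a difference of -6.77 (-7.55 after centring). Proc, protein C, read 5.80 ± 0.067 in control macrophages and 11.44 ± 0.090 in control livers, at the 30.8 percentile in macrophages and the 98.0 in liver, a difference of -5.63 (-6.42 after centring). The macrophage levels of F2 lay below the level filter of 5.74 log2 units that was used for the genotype test, and those of Proc lay close to it. In these 5 vitamin K-dependent genes the macrophage position thus ran from the lower part of the array, for F2 and Proc, to its top for F7 and F10.

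The cofactor and receptor genes had mixed positions. F5, the cofactor of factor Xa, read 7.89 ± 0.80 in control macrophages and 10.99 ± 0.10 in control livers, at the 67.7 percentile in macrophages and the 97.2 in liver, a difference of -3.10 (-3.88 after centring). The spread of F5 among control macrophages was the largest of the members there. Thbd, which turns thrombin toward protein C, read 9.68 ± 0.23 in control macrophages and 6.82 ± 0.37 in control livers, 7.26-fold higher in macrophages (2.08 log2 units after centring), at the 87.5 percentile in macrophages and the 65.5 in liver. F13a1, whose product cross-links fibrin, read 10.79 ± 0.16 in control macrophages and 5.86 ± 0.38 in control livers, 30.5-fold higher in macrophages (4.15 log2 units after centring), at the 94.3 percentile in macrophages and the 48.9 in liver. F3, tissue factor, lay near the middle of both kinds of array, at the 50.8 percentile in macrophages and the 53.6 in liver, and its direction depended on the scale: 0.63 on the deposited scale and -0.15 after centring. The plot of percentiles sets these positions beside the rest of the pathway.

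**Figure D1:**
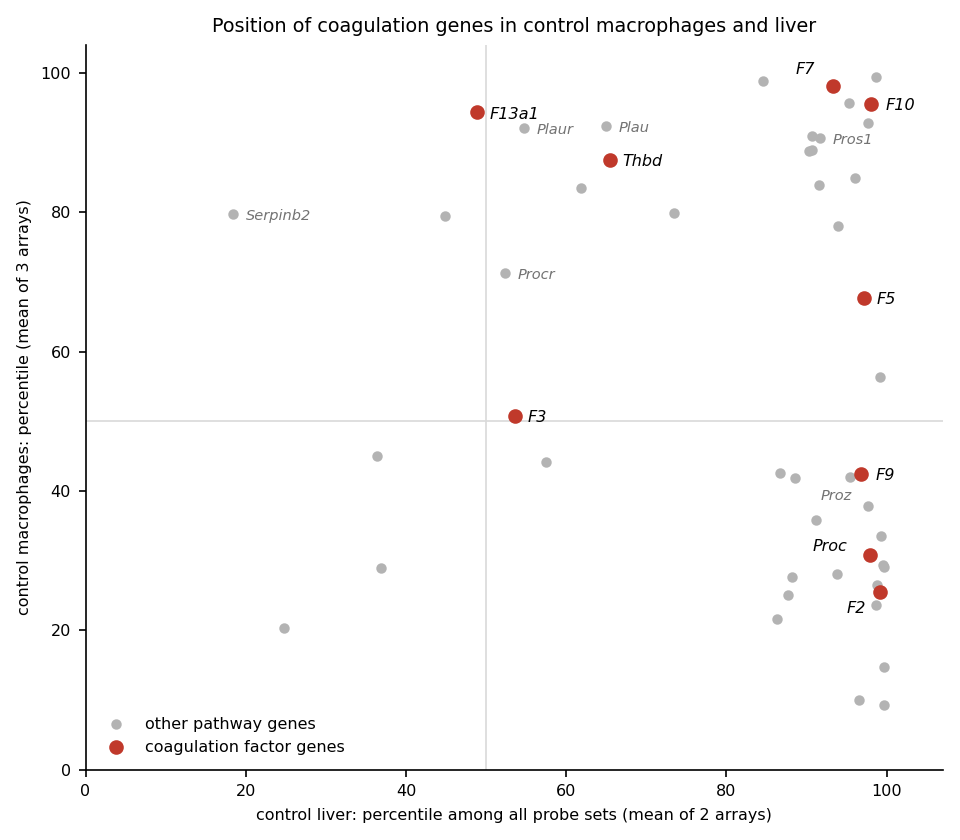
Position of each gene among all probe sets of the same array, in control macrophages (vertical axis, mean of 3 arrays) and control liver (horizontal axis, mean of 2 arrays), in percentiles; red points are the 9 genes described, grey points the other coagulation and fibrinolysis genes, and grey lines mark the middle of each array. F10 and F7 sit in the top right corner, F2, Proc and F9 at the lower right, and F13a1 and Thbd high on the macrophage axis and nearer the middle of the liver axis.

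Between the genotypes in macrophages, F10 was the 1 gene of the 9 with separated values. It read 11.38, 11.38 and 11.41 on the knockout arrays, against 11.11, 11.09 and 11.09 on the control arrays. The knockout arrays lay 0.29 ± 0.074 log2 units above the control arrays (limma SE, n = 3 and 3), or 1.22-fold, and did not overlap with them. The difference was 0.28 within set 1, 0.31 within set 2 and 0.29 with the set as a block. The pooled SD of F10 within genotypes, 0.015, is small beside the median of 0.15 over the 15039 genes tested, and limma's SE is larger than this SD alone would give because it draws each gene's variance toward a common value. F10 was 1 of the 9 genes higher without overlap, and 0 were lower without overlap. Over all genes tested, 0.652% were higher and 1.6% were lower in knockouts without overlap, and limma with Benjamini-Hochberg adjustment called 0 of 15039 genes at an adjusted p under 0.05 (0%), with 105 at an unadjusted p under 0.05. No reading is taken from these counts for genes chosen with this contrast known.

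**Figure D2:**
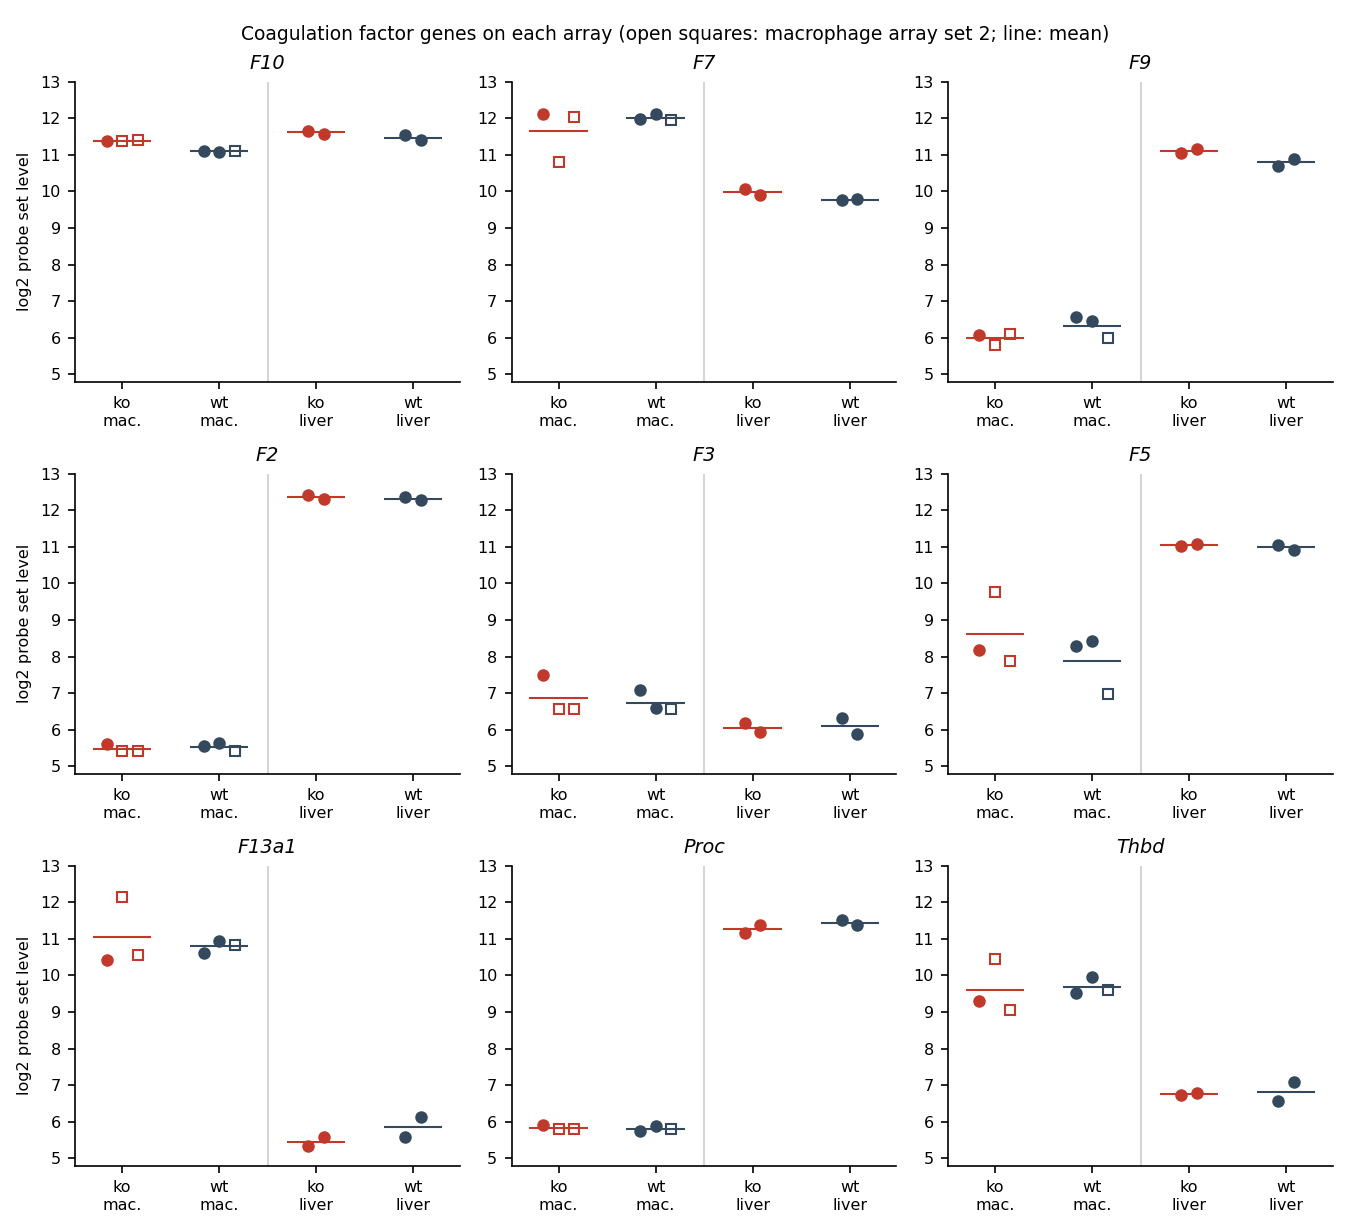
Log2 level of each of the 9 genes on every macrophage and liver array, 1 panel per gene, with knockouts (red) left of controls (blue) in each tissue; open squares are the macrophage arrays of set 2, filled circles all other arrays, and the line is the group mean. The knockout macrophage values of F10 lie between 11.38 and 11.41, above the control values of 11.09 to 11.11, while knockout replicate 2 lies apart in the panels of F7, F5, F13a1 and Thbd.

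Among the other proteases, F7 read 12.12, 10.81 and 12.02 in knockout macrophages, against 11.98, 12.10 and 11.94 in control macrophages. The difference was -0.36 ± 0.34, and it rested on knockout replicate 2, which lay 1.13 log2 units below every other macrophage array. Without that array the F7 difference was 0.06, so its sign turned. F9 read 6.09, 5.80 and 6.10 in knockouts, against 6.56, 6.47 and 5.98 in controls, a difference of -0.34 ± 0.17. Control replicate 3 lay within the range of the knockouts, and the F9 difference was -0.42 within set 1 and -0.04 within set 2. F2 and Proc stayed at low levels, with differences of -0.06 ± 0.10 and 0.03 ± 0.085. Their values were the same to every digit on the 3 arrays of set 2, as were those of F3, so 3 of the 9 genes have a difference of exactly 0 within that set. The share among all genes tested was 41.2%.

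F3 read 7.50, 6.56 and 6.56 in knockout macrophages, against 7.08, 6.59 and 6.56 in control macrophages. Replicate 1 of each genotype was the high array. The difference was 0.13 ± 0.29 over all arrays and -0.18 without knockout replicate 1. F5 read 8.18, 9.76 and 7.89 in knockouts, against 8.28, 8.42 and 6.97 in controls, a difference of 0.72 ± 0.58. Its highest value, on knockout replicate 2, lay 1.33 above all other arrays, and its lowest was control replicate 3. The F5 difference was -0.17 within set 1, 1.86 within set 2 and 0.15 without knockout replicate 2.

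F13a1 read 10.43, 12.13 and 10.57 in knockout macrophages, against 10.61, 10.93 and 10.83 in control macrophages. Knockout replicate 2 lay 1.20 above every other array and the remaining knockouts lay below all controls, so the difference of 0.25 ± 0.43 became -0.29 without that array. Thbd read 9.30, 10.44 and 9.05 in knockouts, against 9.51, 9.95 and 9.60 in controls, with the same arrangement. Its difference was -0.08 ± 0.35 over all arrays and -0.50 without knockout replicate 2. Of the 9 genes, 8 passed the level filter in macrophages, the exception being F2, and 5 were higher and 4 lower in knockouts.

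**Figure D3:**
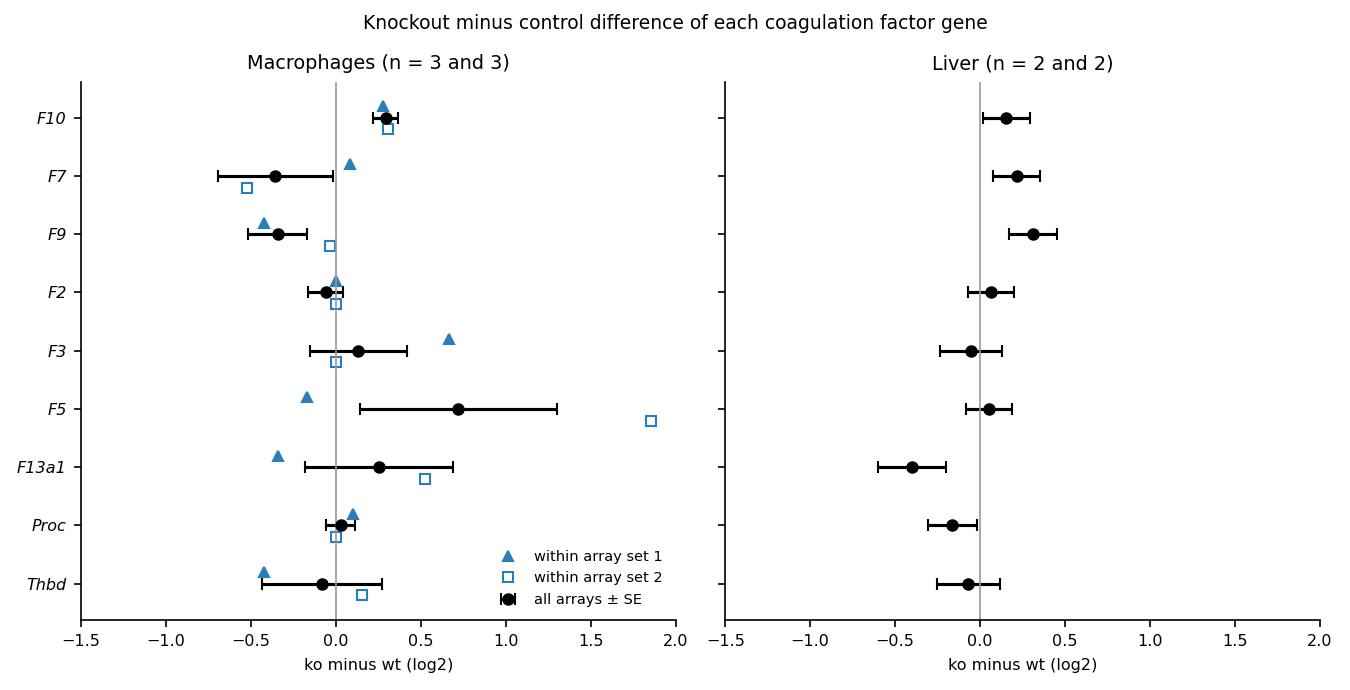
Knockout minus control difference of each gene in log2 units, in macrophages (left, n = 3 and 3) and liver (right, n = 2 and 2); black circles are the differences over all arrays with the limma SE, blue triangles and open squares the macrophage differences within array sets 1 and 2. The 3 macrophage values of F10 lie together at 0.28 to 0.31, whereas those of F5 range from -0.17 to 1.86.

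Marker genes of other cells moved with knockout replicate 2. The median of 7 measured B cell markers (of 8 listed) was 6.70, 8.83 and 6.87 in knockout macrophages, against 7.80, 6.92 and 7.16 in control macrophages, and their summed linear level ran from 746 to 4017 in knockouts and from 800 to 1727 in controls. The B cell marker Cd79b was the highest, at a mean of 8.71 in knockouts and 8.35 in controls, and Cr2 the lowest, at 5.22 in knockouts and 5.24 in controls. Macrophage markers, all 12 measured, had medians of 11.94, 12.80 and 11.88 in knockouts, against 12.16, 12.18 and 11.92 in controls. Monocyte and small peritoneal macrophage markers had medians of 7.87, 9.18 and 8.41 in knockouts, against 8.59, 9.25 and 8.07 in controls, with their highest median on control replicate 2. Their summed linear level, however, was highest on knockout replicate 2, at 23697, with 15090 and 11532 on the other knockout arrays and 8073 to 14336 on the control arrays, and its brightest gene was Fn1. Resident peritoneal macrophage markers, 8 of 10 measured, also had their highest median there: 7.84, 8.31 and 7.86 in knockouts, against 8.04, 7.84 and 7.46 in controls. Their summed linear level was 4352 on that array, with 2171 and 1758 on the other knockouts and 1666 to 2224 on the controls. Mesothelium markers had their lowest median on that array, 6.39, with 6.95 and 6.50 on the other knockouts, against 7.06, 6.85 and 6.73 in controls. The part of these cells in the values of F7, F5, F13a1 and Thbd was not tested. F10 lay at 11.38 on that array, inside the range of the other arrays.

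**Figure D4:**
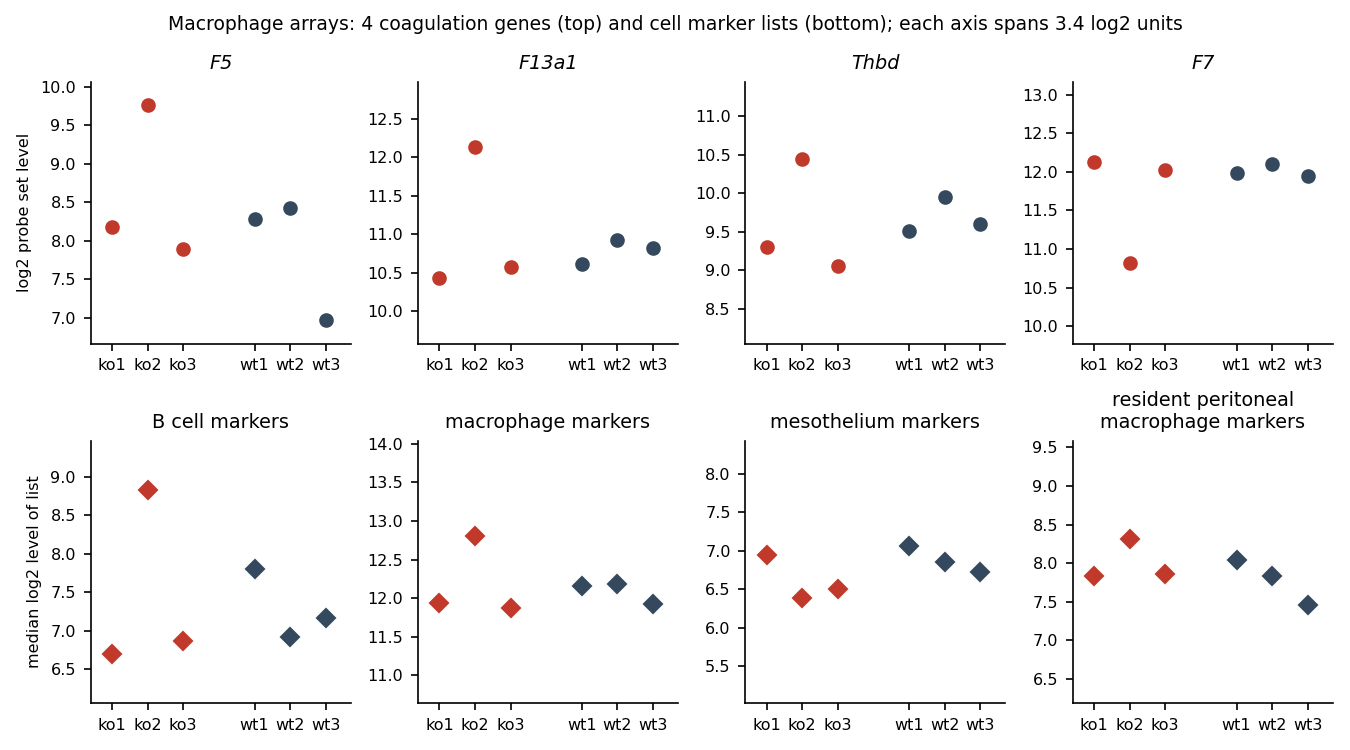
Log2 levels of F5, F13a1, Thbd and F7 (top row) and the median log2 levels of B cell, macrophage, mesothelium and resident peritoneal macrophage marker lists (bottom row) on each macrophage array, with knockout replicates 1 to 3 (red) left of control replicates 1 to 3 (blue) and axes of equal span. Knockout replicate 2 is the highest array for F5 (9.76), F13a1 (12.13), Thbd (10.44) and the B cell markers (8.83), and the lowest for F7 (10.81).

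In liver, F10, F7 and F9 were higher in knockouts by small amounts and without overlap. F10 read 11.66 and 11.58 in knockout livers, against 11.54 and 11.40 in control livers, a difference of 0.15 ± 0.14 (limma SE, n = 2 and 2). The nearest values of the genotypes were 11.58 and 11.54. F7 read 10.07 and 9.90 in knockouts, against 9.76 and 9.78 in controls, a difference of 0.21 ± 0.14. F9 read 11.05 and 11.15 in knockouts, against 10.70 and 10.88 in controls, a difference of 0.31 ± 0.14. These 3 genes were higher without overlap and 0 of the 9 were lower without overlap. Over all 15942 genes tested the shares were 11.8% higher and 18% lower without overlap, and limma with Benjamini-Hochberg adjustment called 1 gene (0.00627%), none of the genes described. No reading is taken from the count of 3. Beside them, 8 of 9 measured hepatocyte markers were higher in knockout livers, 4 without overlap, with a median difference of 0.06, and limma called 0. Their part in these values was not tested.

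For F2, Proc and F5 the genotypes overlapped in liver. F2 read 12.42 and 12.32 in knockout livers, against 12.35 and 12.27 in control livers, a difference of 0.06 ± 0.14. Proc read 11.17 and 11.37 in knockouts, against 11.50 and 11.37 in controls, a difference of -0.16 ± 0.14 that was -0.06 without knockout replicate 1. F5 read 11.02 and 11.06 in knockouts, against 11.06 and 10.92 in controls, a difference of 0.05 ± 0.14.

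The genes that were dim in liver had wider spreads among controls. F13a1 read 5.33 and 5.59 in knockout livers, against 5.59 and 6.13 in control livers, a difference of -0.40 ± 0.20 that was -0.13 without control replicate 2. Thbd read 6.72 and 6.79 in knockouts, against 6.56 and 7.09 in controls, a difference of -0.07 ± 0.19. F3 read 6.18 and 5.93 in knockouts, against 6.33 and 5.89 in controls, a difference of -0.06 ± 0.18. In each of them the highest value was on a control array, and for Thbd and F3 the lowest was as well. Beside the F13a1 values, 11 of 12 macrophage markers were lower in knockout livers, with a median difference of -0.30 and summed linear levels of 5987 to 6929 in knockouts and 7624 to 10321 in controls. All 10 endothelial markers were lower, with a median difference of -0.17 and sums of 1752 to 1949 in knockouts and 2009 to 2095 in controls. The part of these cells in the values of F13a1 and Thbd was not tested.

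In the aorta pools, F10 was dim in both genotypes. Its brightest probe set read 13.2 units of signal in the knockout pool and 12.5 in the control pool, below the signal of 32.6 that a gene needed on its brighter array to be counted, and the others read 3.52 and 6.73 in the knockout pool, against 3.42 and 6.69 in the control pool. F9 read 7.07 in the knockout pool and 4.33 in the control pool, F2 read 7.65 in the knockout pool and 3.25 in the control pool, and Proc read 1.05 in the knockout pool and 1.48 in the control pool. The probe sets of F5 read 27.6 and 25.9 in the knockout pool, against 9.78 and 7.95 in the control pool, differences of 0.76 and 0.81 as log2(signal + 16). That scale shrinks the ratio between low signals, and at such signals the size of a change in F5 is not known. F5 also stayed below the limit for counting.

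F7, F3, F13a1 and Thbd were the 4 genes bright enough to be counted in the aorta, and 0 of them differed by 2-fold or more. Over the 7098 genes counted, 0.873% were higher and 0.394% lower in the knockout pool by 2-fold or more. F7 read 25.6 in the knockout pool and 40.4 in the control pool, a difference of -0.44 on the log2(signal + 16) scale. Thbd read 197 in the knockout pool and 162 in the control pool (0.25). F13a1 read 292 in the knockout pool and 285 in the control pool (0.04), and F3 read 93.6 in the knockout pool and 89.9 in the control pool (0.05). With both arrays scaled to the same median the differences of F13a1 and F3 turned to -0.07 and -0.05. With 1 pool per genotype there is no replicate check and no test.

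Markers of other cells also differed between the aorta pools. The summed signal of 7 measured B cell markers was 728 in the knockout pool and 118 in the control pool, and all 7 were higher in the knockout pool, among them Ms4a1 at 453 in the knockout pool and 49.9 in the control pool. Cd79b read 162 in the knockout pool and 29.8 in the control pool. Of 8 measured platelet and megakaryocyte markers 6 were higher, with sums of 395 in the knockout pool and 250.3 in the control pool, and Ppbp read 69.4 in the knockout pool and 13.4 in the control pool. Of 10 endothelial markers 9 were lower, with sums of 1616 in the knockout pool and 1946 in the control pool, among them Cldn5 (-0.64), Emcn (-0.40) and Pecam1 (-0.28). Of 12 macrophage markers 9 were higher, with sums of 6018 in the knockout pool and 5713 in the control pool, and of 6 smooth muscle markers 5 were higher, with sums of 4520 in the knockout pool and 3665 in the control pool. These counts and sums include markers below the signal of 32.6 used above for counting genes. Among markers bright enough to be counted, 3 of 3 B cell and 2 of 3 platelet and megakaryocyte markers were higher. Of the others so counted, 9 of 9 endothelial markers were lower, and 8 of 11 macrophage and 5 of 6 smooth muscle markers were higher. The part of these cells in the aorta values was not tested.

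The other genes of coagulation and fibrinolysis, 43 in a list without the 9 genes above, gave no call in macrophages. Of 38 measured on that array, 27 passed the level filter, and limma with Benjamini-Hochberg adjustment called 0 of them, with 0 at an unadjusted p under 0.05 and 0 without overlap between genotypes. However, 19 of the 38 had the same value to every digit on all arrays of set 2, knockout and control alike. Their difference within that set was fixed at exactly 0, and they could not separate the genotypes without overlap. Limma still counted those arrays as separate. The lack of a call therefore does not show that these 19 genes were unchanged. Of the 38, 16 were higher and 22 lower in knockout macrophages, with a median difference of -0.02 against -0.04 over all genes tested. In control macrophages 18 of the 38 lay above the array median and 8 above the 90th percentile, against 33 and 22 in control livers. P-values here and below measure only the spread between these arrays.

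By role, the macrophage genes with the smallest p in each direction differed by at most 0.49 log2 units in size. In the vitamin K cycle, Vkorc1, the epoxide reductase, differed by -0.19 ± 0.10 and Calu, calumenin, by 0.13 ± 0.093. Within set 1 the difference of Vkorc1 was -0.38 and that of Calu 0.16, against exactly 0 and 0.0064 within set 2. Among receptors of the proteases, F2r, the thrombin receptor PAR1, differed by -0.17 (-0.36 in set 1 and -0.07 in set 2), F2rl3 by 0.25 (0.56 in set 1) and F2rl2 by 0.13 (0.04 in set 1). Among inhibitors Tfpi2 differed by 0.17 (0.18 in set 1), and Serpinf2, the inhibitor of plasmin, by -0.26 (-0.12 in set 1). Of the contact genes, F12 differed by -0.07 (0.10 in set 1) and F11, below the filter, by -0.05 (-0.21 in set 1). The values of F2rl3, F2rl2, Tfpi2, Serpinf2, F12 and F11 were the same to every digit on the arrays of set 2, so their differences within it were exactly 0. The fibrinogen genes and F13b, 4 in all, stayed below the filter.

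The larger values of this list rested on knockout replicate 2. Procr, the receptor of protein C, read 8.12, 6.62 and 8.28 in knockout macrophages, against 8.06, 8.07 and 8.36 in control macrophages, a difference of -0.49 ± 0.42 that was 0.04 without that array. Vwf, the carrier of factor VIII, read 9.33, 8.0 and 9.21 in knockouts, against 9.38, 9.29 and 9.02 in controls (-0.38, and 0.04 without it). Serpinb2, an inhibitor of plasminogen activators, read 9.02, 10.05 and 8.82 in knockouts, against 8.97, 8.51 and 9.21 in controls (0.40, and 0.02 without it). Anxa2, a cell surface receptor of plasminogen, differed by -0.24, with 11.82 on that array and 12.44 or more on the others. Plau, urokinase, named after its values were seen, read 11.02, 7.60 and 10.06 in knockouts, against 10.90, 10.40 and 9.94 in controls. Its difference of -0.85 was 0.13 without knockout replicate 2. Plgrkt, a plasminogen receptor, differed by 0.11, with 0.26 within set 1 and -0.08 within set 2.

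**Figure D5:**
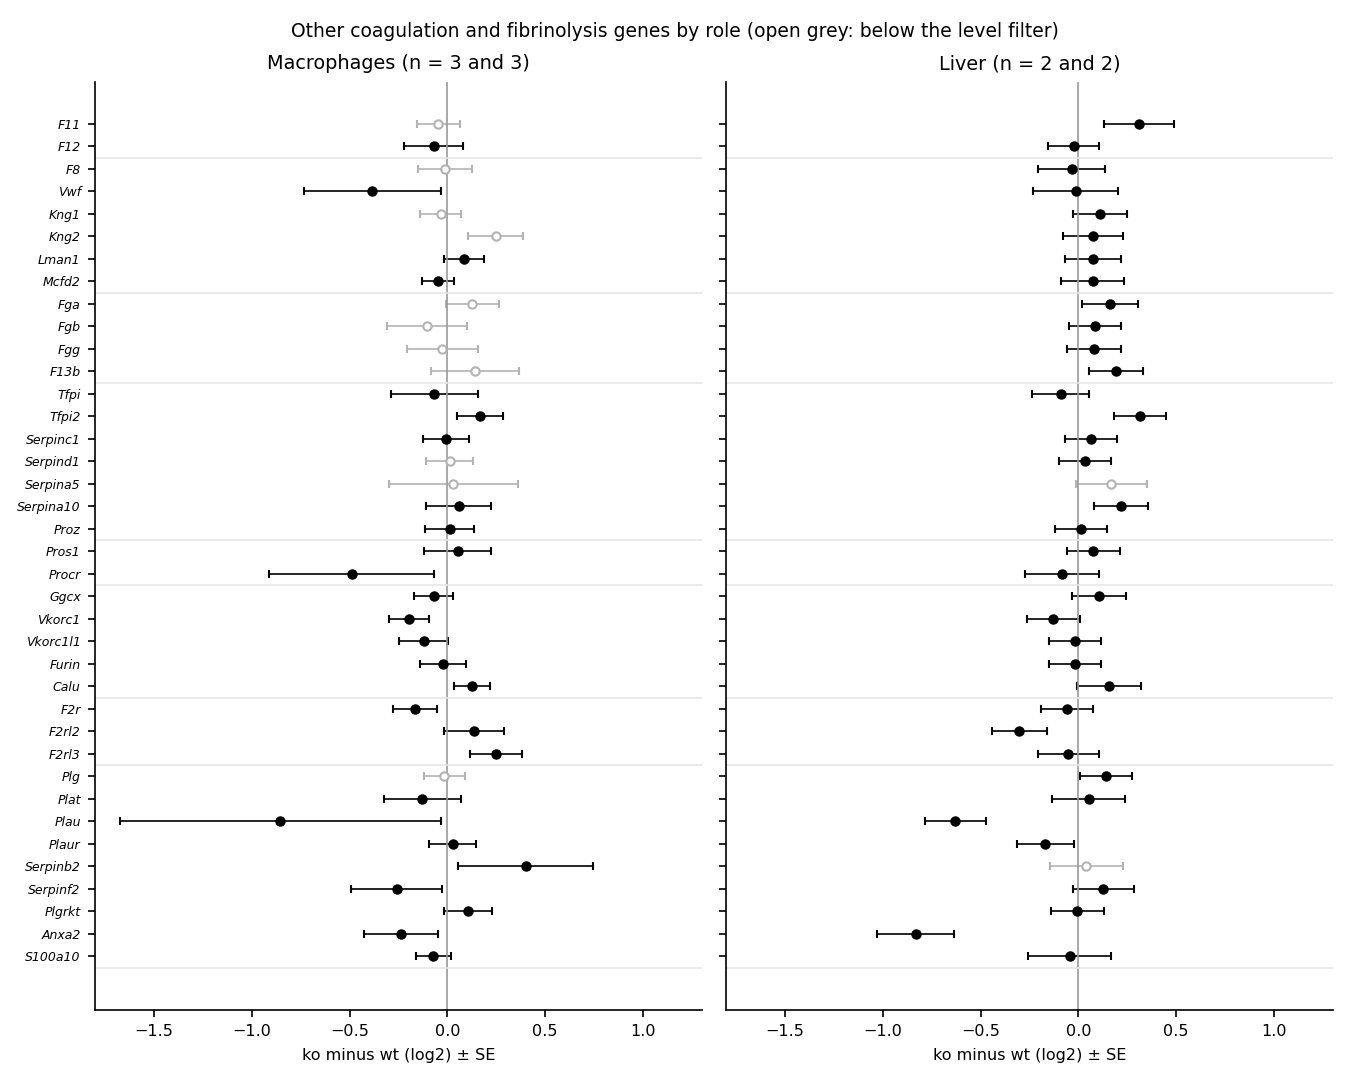
Knockout minus control difference in log2 units with the limma SE for each other coagulation and fibrinolysis gene, in macrophages (left) and liver (right), grouped by role between the grey lines; open grey points lie below the level filter. In macrophages the widest bars belong to Plau, Procr, Vwf and Serpinb2, and in liver Anxa2 (-0.83) and Plau (-0.63) lie farthest from 0.

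In liver the same list again gave no call. Of 38 measured genes, 36 passed the filter, and limma with Benjamini-Hochberg adjustment called 0, with a smallest adjusted p of 0.762 and 3 genes at an unadjusted p under 0.05. Among all 15942 genes tested in liver, 684 had a limma p below 0.05 before adjustment, 246 of them higher and 438 lower in knockouts. Of the list genes, 22 were higher and 16 lower in knockouts, with a median difference of 0.05 against -0.02 over all genes tested. Without overlap, 7 were higher and 6 lower, where 11.8% and 18% of all genes tested were. Anxa2 read 7.28 and 7.85 in knockout livers, against 8.31 and 8.48 in control livers, a difference of -0.83 ± 0.20 (limma, Benjamini-Hochberg adjusted p = 0.762). Plau read 6.27 and 6.06 in knockouts, against 6.92 and 6.66 in controls, a difference of -0.63 ± 0.16 (limma, Benjamini-Hochberg adjusted p = 0.812). Tfpi2, an inhibitor of tissue factor pathway proteases, read 9.23 and 9.20 in knockouts, against 8.87 and 8.94 in controls, a difference of 0.31 ± 0.13. The macrophage and endothelial marker lists named above were also lower in these knockout livers, and their part in the values of Anxa2 and Plau was not tested.

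The fibrinogen chain genes and F13b, 4 in all, were higher in knockout livers by 0.08 to 0.19, with 0 called, whereas F13a1, described above, differed by -0.40. Hepatocyte markers were higher by a median of 0.06 on these arrays, as given above, and their part in these values was not tested. Among the 4 were Fga, the fibrinogen alpha chain, at 0.16, and F13b, the carrier chain of factor XIII, at 0.19. F11, factor XI, differed by 0.31, Serpina10, the inhibitor of factor Xa that works with protein Z, by 0.22, and Plg, plasminogen, by 0.14. On the lower side were F2rl2 (-0.30), Plaur, the urokinase receptor (-0.17), Vkorc1 (-0.13) and Tfpi (-0.09). Of the cofactors and carriers, Kng1, Kng2 and Lman1 differed by 0.11, 0.07 and 0.07, and in the protein C arm Pros1, protein S, differed by 0.08 and Procr by -0.08.

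Whether the response differed between macrophages and liver was tested for the list over all 10 arrays. Limma with Benjamini-Hochberg adjustment called 0 of 15548 genes (0%), with 313 at an unadjusted p under 0.05, and the list held 0 of either. Its smallest p belonged to F2rl2, with differences of 0.13 in macrophages and -0.30 in liver, and to Anxa2, with -0.24 in macrophages against -0.83 in the livers. The identical macrophage values on set 2, given above, limit this test too. On the aorta arrays, 16 of 37 measured list genes were bright enough to be counted and 0 differed by 2-fold or more. Vwf read 238 in the knockout pool and 369 in the control pool, -0.60 as log2(signal + 16), beside the lower endothelial markers given above. Anxa2 read 617 in the knockout pool and 782 in the control pool (-0.33), Kng1 read 145 in the knockout pool and 174 in the control pool (-0.24), and Vkorc1 read 285 in the knockout pool and 328 in the control pool (-0.19). A dim second probe set of Kng1 read 7.06 in the knockout pool and 6.75 in the control pool. On the other side S100a10, the partner of Anxa2, read 684 in the knockout pool and 611 in the control pool (0.16), while its other probe set read 606 in the knockout pool and 633 in the control pool (-0.06). Plaur read 59.3 in the knockout pool and 52.7 in the control pool (0.13). Pros1 read 102 in the knockout pool and 94.2 in the control pool (0.10). The brightest probe set of Lman1, a receptor that carries factors V and VIII out of the endoplasmic reticulum, read 185 in the knockout pool and 167 in the control pool (0.13). All its other probe sets went the other way, with 122, 37.2 and 11.5 in the knockout pool, against 174, 44.7 and 13.9 in the control pool.

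The genes whose pattern over the arrays was most like that of F10 were sought by Pearson correlation over the 10 macrophage and liver arrays, after centring each gene on its mean in each tissue, among 14615 genes. This is a description, since the arrays share genotypes, sets and processing. The genotype difference was not removed, and F10 was higher in knockouts in both tissues. The search therefore favours genes that are higher in knockouts in both, as each gene named next was. Genes with symbols such as those of predicted genes and non-coding RNAs were left out of the names, so some of them may be closer to F10. Of the genes named, Slc38a6, an amino acid transporter gene, had the highest r, 0.886, with differences of 0.47 in macrophages and 0.48 in liver. Tmem167 followed at r = 0.875 (0.46 in macrophages and 0.56 in liver), and then Iws1, a transcription elongation factor gene, at r = 0.848, Sbk1 at 0.810 and Ercc5, a DNA repair gene, at 0.789. Where these genes lie relative to Prkch was not looked up, and a part of the targeted locus in their values was not tested. The order depended on the measure: with macrophages centred by set the ranks of Slc38a6, Tmem167, Iws1, Sbk1 and Ercc5 were 3, 4, 7, 5 and 24, and by Spearman's rho they were 4, 11, 5, 37 and 17. Unlike the order above, these ranks also count the genes left out of the names, so the places in the 2 are not comparable. Among the other genes described, F5 had r = 0.39 with F10, F3 0.21, F13a1 -0.02, Proc -0.14, Thbd -0.22, F7 -0.24 and F9 -0.38. F2 lay below the macrophage level filter and was not set against it.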

How the data were processed

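Gene expression was measured on 12 arrays. Per the submitters' processing notes the authors used Affymetrix Expression Console, with its version and algorithm not given in the sources used. Judged from their range, the values the authors deposited for macrophages and liver are normalized log2 summaries per probe set, and those deposited for aorta are linear intensity (signal) scaled by the authors. Gene symbols came from the platform annotation, and only probe sets with 1 symbol were used. The probe set with the highest mean stood for a gene, and genes below the 30th percentile of mean level were left out of tests.

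Each tissue was fitted alone with limma 3.58.1 in R 4.3.3 (lmFit and eBayes, knockout minus control, no covariate), with Benjamini-Hochberg adjustment over all genes tested and calls at an adjusted p under 0.05. The difference between tissues was fitted over the 10 macrophage and liver arrays. The single-tissue fit was tested on simulated data. Aorta differences are log2(signal + 16). Array sets were found from ties of over 1000 identical values. No array was dropped or imputed except where stated. Promoters were searched by exact match on both strands.

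The members, lists and alternatives were chosen with earlier results of these data known. Named were all 9 genes and Prkch; list genes called, or else the 6 smallest p per direction and tissue, with up to 3 by level for roles without any; 4 per direction in the aorta; the 5 genes most like F10; and the highest and lowest markers. Of the marker lists without a macrophage value in the report, the measured members differed between genotypes in macrophages by medians of -0.05 (platelet and megakaryocyte), -0.05 (endothelial) and -0.11 (smooth muscle), with 0 called by limma. The replicate numbers shared by the genotypes were checked by the correlation of same-numbered arrays' deviations from their group means. It was 0.40, 0.03 and 0.50 in macrophages and 0.11 in liver. Differently numbered arrays had -0.46 to 0.19 in macrophages, so replicates 1 and 3 were more alike across genotypes than these, and same-numbered macrophage arrays share an age. The liver value for different numbers, -0.11, is fixed by the centring. The labels name no pairs, and the main fits treat the arrays as unpaired. Fits with the replicate number as a block are given below.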

Additional observations from a re-analysis of the deposited data

How the results depend on the processing

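The F10 difference in macrophages, 0.29 log2 units, was 0.31 with quantile normalization and 0.32 with median centring, both larger moves than the spread between replicates, and 0.28 to 0.30 with each replicate left out in turn. With the replicate block, that is the replicate number as a block, it was 0.29, and pathway calls stayed at 0. The F10, F9 and F5 differences in macrophages kept their sign in all 12 alternatives, those of F7, F2, F3 and F13a1 in 11, Proc in 10 and Thbd in 9. These counts include alternatives that could not move a difference: the replicate block, the mean of probe sets and the fit over all 10 arrays. Each gene has 1 probe set there, and each replicate number occurs once per genotype. Without knockout replicate 2 the differences were 0.06 for F7, 0.15 for F5, -0.29 for F13a1 and -0.50 for Thbd. In liver, with 2 arrays per genotype, leaving out 1 array gave 0.084 to 0.23 for F10, 0.13 to 0.30 for F7 and 0.22 to 0.40 for F9, -0.67 to -0.13 for F13a1 and -0.27 to -0.06 for Proc. Those of F3 (-0.28 to 0.17), Thbd (-0.33 to 0.20) and F5 (-0.02 to 0.12) changed sign. Such fits assume that a lone array varies like the other genotype's. Limma called 0 pathway genes under each alternative run, in macrophages, in liver and for the difference between them. In macrophages and for that difference, the identical values on set 2 limit these counts as well. In the aorta, scaling to the same median turned F10 to -0.02, F3 to -0.05 and F13a1 to -0.07. The number of arrays limits the precision.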

Other observations

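The genes beside F10 and F7 on chromosome 8 were looked up after the values of those genes were seen, by their order in RefSeq (GRCm38.p6), which is Atp11a, Mcf2l, F7, F10, Proz, Pcid2 and Cul4a. Proz, protein Z, a vitamin K-dependent cofactor for the inhibition of factor Xa, lay at the 42.0 percentile in control macrophages and at the 95.4 percentile in control livers, where F10 lay at 95.5 in macrophages and 98.0 in livers. On the other side, Mcf2l, a guanine nucleotide exchange factor gene, lay at the 60.7 percentile in control macrophages and at 53.5 in control livers. Atp11a lay at 82.4 in control macrophages and 66.4 in control livers, Pcid2 at 76.8 in macrophages and 70.5 in livers, and Cul4a at 81.5 in macrophages and 86.2 in livers. The knockout minus control differences of these neighbours in macrophages ran from -0.07 (Atp11a) to 0.11 (Pcid2), where F10 had 0.29. Within set 1, however, Pcid2 differed by 0.35 and Atp11a by 0.24, where F10 had 0.28, and within set 2 Pcid2 differed by -0.11 and Atp11a by -0.05, where F10 had 0.31. In liver they ran from -0.17 (Cul4a) to 0.16 (Atp11a), where F10 had 0.15 and Proz 0.01.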
